A study of Mus musculus with 4 samples.

Results

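Chaperones are proteins that help other proteins fold, and they work in separate compartments of the cell. In the cytosol, the Hsp70 and Hsp90 families, the small heat shock proteins and the DnaJ co-chaperones that stimulate Hsp70 are induced by heat shock factor when proteins denature. In the endoplasmic reticulum (ER), where secreted and membrane proteins fold, BiP (Hspa5), Grp94 (Hsp90b1), the lectins calnexin and calreticulin and the disulfide isomerases of the Pdia family do this work. When unfolded proteins build up there, the unfolded protein response (UPR) is triggered through the sensors IRE1 (Ern1), PERK and ATF6 and the transcription factors Xbp1, Atf4 and Ddit3. In the kidney, tubule cells carry a large load of membrane transporters and depend on this machinery.

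The genes described here are those whose platform symbol starts with Hsp followed by a, b, d, e, h or 90, starts with Dnaj, is Pdia with a number, or is Atf4, Atf6, Ddit3, Xbp1, Ern1, Trib3, Herpud1, Calr, Canx, Sdf2l1 or Hyou1. They were chosen by name, with earlier results of these data known, and numbered 88 of the 18193 genes with a probe set of 1 symbol, with 213 probe sets. Of the 88, 44 encode cytosolic or nuclear chaperones, 22 ER chaperones, 8 mitochondrial chaperones and 7 UPR regulators, and 7 have another or unclear location. A further 3 probe sets carry the symbols of both Dnajc19 and a pseudogene and were not used, and Hsp90ab1 was not analysed here.

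The kidneys fell into 4 groups, each measured on 1 Affymetrix array that holds the RNA of 4 female FVB/NJ mice pooled before labelling. Nondiabetic controls were littermates without the transgene, and diabetic mice were OVE26 transgenic, a line in which a calmodulin transgene driven by an insulin promoter damages pancreatic beta cells. Either uninephrectomy (removal of 1 kidney) or sham surgery was done at 2 months of age, and kidneys were perfused and taken at 4.5 months, 10 weeks later. Signals are given in the order nondiabetic mice after sham surgery, nondiabetic mice after uninephrectomy, diabetic mice after sham surgery and diabetic mice after uninephrectomy. All groups were female, of 1 age and perfused alike.

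Signals are the deposited linear intensities. Differences are on the scale log2(intensity + 26.4), which makes differences of dim genes smaller than their intensity ratios. Each gene is shown by its brightest probe set, and expressed genes are those with a mean of at least 7.06 over the arrays, which is an intensity of about 106.7. This kept 74 of the 88 genes (33 cytosolic, 21 ER, 8 mitochondrial, 6 UPR regulators and 6 of other location) and 11206 of all genes. All 74 were at or above the level on 4 of 4 arrays. With 1 array per group, a difference between 2 arrays has no replicate check, and precision is limited by how few arrays there are. In bulk tissue, fewer cells of a type and less RNA per cell cannot be told apart.

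The arrays differed in ways that can touch these genes. The 9 hybridisation spike-in probe sets had a geometric mean signal 1.19-fold that of nondiabetic sham on the nondiabetic uninephrectomy array, 1.24-fold on diabetic sham and 0.912-fold on diabetic uninephrectomy. The 18S ribosomal RNA probe sets gave 1.02-fold, 1.32-fold and 1.88-fold. The ratio of 3′ to 5′ signal of the actin control was 2.78, 3.49, 3.72 and 3.38, and that of Gapdh lay between 0.897 and 1.01. All 8 nephron markers with a named probe set were expressed, with a summed signal of 117936, 122076, 117852 and 94145.

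No chaperone or UPR gene passed the test for either factor. In limma, with the other factor as covariate, 0 of the 74 genes were higher and 0 lower with diabetes at an adjusted p below 0.05, against 1.47% and 0.732% of all expressed genes. With uninephrectomy 0 were higher and 0 lower, against 0.33% and 0.178% of all genes. At an unadjusted p below 0.05 with diabetes, 4 were higher (Dnajb12, Hspb1, Dnajb4 and Dnajc2) and 3 lower (Dnajc3, Sdf2l1 and Pdia4), against 5.42% and 4.06% of all genes. For uninephrectomy 3 were higher (Hspb1, Dnajc17 and Hspb8) and 1 lower (Hspa1a), against 3.19% and 2.48%. These shares are near those of all genes. Without the trend of variance with expression, limma called 0 of all genes for diabetes (0%) and 4 for uninephrectomy (0.0357%), so its 0 called members say nothing about the members. At an unadjusted p below 0.05 this limma fit had 2 members for diabetes (8.09% of all genes) and 5 for uninephrectomy (5.3%).

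Few members differed by 1.5-fold or more between 2 arrays. In diabetic against nondiabetic sham kidneys 0 were higher (4.36% of all expressed genes) and 2 lower, Sdf2l1 and Dnajb5 (3.12% of all genes). In uninephrectomised kidneys 5 were higher with diabetes, Dnajb12, Dnajb4, Hspb1, Dnajc24 and Dnajc2 (6.43%), and 0 lower (6.06%). After uninephrectomy in nondiabetic mice 3 were higher, Dnajc17, Hspb8 and Dnajc16 (3.85%), and 2 lower, Hspa1a and Dnajc24 (2.82%). After uninephrectomy in diabetic mice 2 were higher, Hspb1 and Sdf2l1 (5.01%), and 0 lower (4.35%). In any of these comparisons 11 of 74 members reached 1.5-fold either way, against 22.9% of all expressed genes.

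The ER and cytosolic classes were lowest on different arrays. ER chaperone genes were lower on the diabetic sham array, where their median deviation from each gene's mean over the 4 arrays was -0.14 log2 units. It was 0.04 on nondiabetic sham, 0.06 on nondiabetic uninephrectomy and 0.04 on diabetic uninephrectomy. The cytosolic medians were 0.04, -0.03, 0.02 and 0.04, so that class was lowest, by a smaller step, on the nondiabetic uninephrectomy array.

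**Figure D1:**
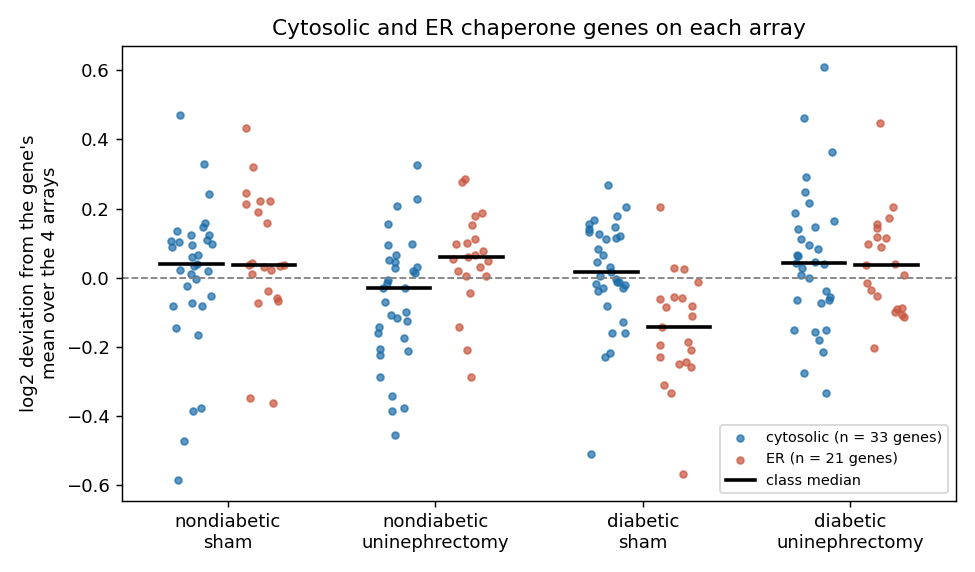
Log2 deviation of each cytosolic (33) and ER (21) chaperone gene from its own mean over the 4 arrays, by array. Points are genes and black bars class medians; the ER median of -0.14 on the diabetic sham array is the class median farthest from 0.

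In sham kidneys 18 of 21 ER chaperone genes were lower in diabetic than in nondiabetic mice, with a median log2 difference of -0.19, while 48.3% of all expressed genes were lower and their median was 0.01. Of the 33 cytosolic genes 14 were lower, with a median of 0.02. In uninephrectomised kidneys 13 of 21 ER genes and 11 of 33 cytosolic genes were lower with diabetes, against 51.4% of all genes, and the medians were -0.04 and 0.13 against -0.01 for all genes. The cytosolic median thus exceeded the ER median by 0.20 in sham and by 0.18 in uninephrectomised kidneys, comparisons that share no array. Below 0 in both were 11 of 21 ER genes and 6 of 33 cytosolic genes (26% of all genes), and above 0 in both were 1 ER gene, Dnajb12, and 14 cytosolic genes (26.3%). With the median of each array set equal, the all-gene medians of the 4 comparisons became -0.08, 0.11, -0.13 and 0.06. The ER genes below 0 then numbered 19 in sham and 8 in uninephrectomised kidneys (61.7% and 36.1% of all genes), and the ER median in uninephrectomised kidneys turned from -0.04 to 0.08.

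After uninephrectomy in diabetic mice, which uses the same diabetic sham array, 18 of 21 ER genes were higher than after sham surgery (47.6% of all genes), with a median of 0.22. In nondiabetic mice the ER median was 0.01, with 10 of 21 below 0 and 49.5% of all genes below 0. This depended on the probe sets used. When the probe sets of a gene were averaged, the nondiabetic ER median was -0.11, with 16 of 21 below 0 (49.8% of all genes). With probe sets singly it was -0.05, with 29 of 50 below 0 (51.3%). The ER medians in diabetic mice were 0.11 and 0.15 in these settings. The cytosolic medians were 0.01 in diabetic and -0.09 in nondiabetic mice, where 22 of 33 were lower. Beside these medians, the median limma standard error of a gene was 0.17 in both classes. The members are not replicates and no test was made on the medians. The difference of the cytosolic and ER medians after uninephrectomy in nondiabetic mice, -0.11, turned to 0.02 when the probe sets of a gene were averaged.

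**Figure D2:**
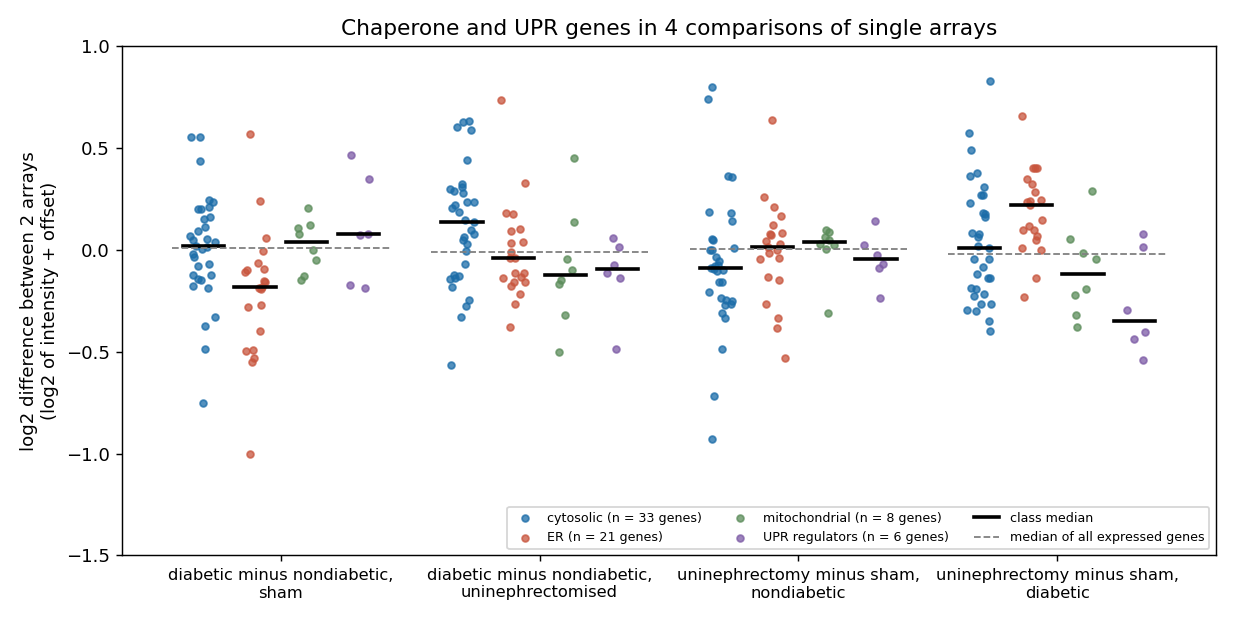
Log2 differences of the expressed cytosolic (33), ER (21) and mitochondrial (8) chaperone genes and UPR regulators (6) in the 4 comparisons between single arrays, by class. Points are genes, black bars class medians and dashed lines the median of all 11206 expressed genes; the ER genes lie lowest in sham kidneys (median -0.19) and the UPR regulators lowest after uninephrectomy in diabetic mice (median -0.35).

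Some of the ER genes share a promoter element. RefSeq promoters of build GRCm38.p6, from 250 bases before to 50 after the start, were found for 73 of the 88 genes, and were searched on both strands. The ER stress response element (ERSE), CCAAT and CCACG with 9 bases between, binds NF-Y and ATF6. It lay in the promoters of 6 of 19 ER chaperone genes and of 0 of 37 cytosolic genes, against 0.137% of 27025 genes. ERSE-II (ATTGG and CCACG with 1 base between) lay in those of Herpud1 and Dnajb11, against 0.0444% of all. The heat shock element searched was GAA, 2 bases, TTC, 2 bases and GAA, or the same with GAA and TTC exchanged. It lay in those of Dnajb6, Hsph1, Hspd1 and Hspe1, against 0.662%. The UPR element TGACGTGG lay in that of Dnajc25 (0.714%) and the CHOP and ATF4 element TGATGNAAT in 0 of 73 (1.08%). No member promoter held more than 1 kind of element, and a match of letters does not show binding.

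The ERSE stretches of the 6 ER chaperone genes that hold one are shown here. Most of the 19 ER chaperone genes searched held none, so the element does not mark the class. Each is printed on its gene's strand with 20 bases on either side, and capitals mark the element, which in Calr and in the second Hsp90b1 stretch reads on the opposite strand. Their places are chr2:34772005-34772063 (plus strand) for Hspa5, chr8:84847055-84847113 (minus) for Calr, chr10:86705618-86705676 and chr10:86705513-86705571 (minus) for Hsp90b1, chr11:50325780-50325838 (minus) for Canx, chr12:17266471-17266529 (plus) for Pdia6 and chr14:118937807-118937865 (plus) for Dnajc3. All lie before the start of the gene, the nearest of them, in Hspa5, from 65 to 47 bases before it.
Hspa5: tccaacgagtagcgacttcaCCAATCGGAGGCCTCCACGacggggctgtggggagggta
Calr: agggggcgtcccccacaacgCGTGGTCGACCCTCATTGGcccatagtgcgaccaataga
Hsp90b1, distal: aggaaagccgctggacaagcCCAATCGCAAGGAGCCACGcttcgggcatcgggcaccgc
Hsp90b1, proximal: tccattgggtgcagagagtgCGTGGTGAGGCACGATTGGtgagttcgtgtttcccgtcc
Canx: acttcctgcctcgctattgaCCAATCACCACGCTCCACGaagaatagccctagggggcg
Pdia6: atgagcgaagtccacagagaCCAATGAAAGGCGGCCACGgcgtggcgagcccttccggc
Dnajc3: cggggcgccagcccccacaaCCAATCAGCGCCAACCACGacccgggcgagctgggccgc

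The ERSE-II of Herpud1, which encodes a membrane protein of ER-associated degradation, lies at chr8:94386357-94386407 on the plus strand. The heat shock elements of Hspd1 and Hspe1, the mitochondrial Hsp60 and Hsp10 genes that are transcribed away from each other, are a single stretch at chr1:55088039-55088096, printed here on the strand of Hspe1.
Herpud1: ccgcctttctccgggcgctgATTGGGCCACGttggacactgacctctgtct
Hspe1 and Hspd1: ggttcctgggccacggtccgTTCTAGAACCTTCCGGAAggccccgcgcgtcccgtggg

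Of the genes with an ERSE, BiP and the lectins were nearly level over the arrays. Hspa5, the ER Hsp70 that binds unfolded chains and holds the UPR sensors inactive, had signals of 21399, 22622, 19871 and 20558. Its log2 differences with diabetes were -0.11 in sham and -0.14 in uninephrectomised kidneys, with both diabetic arrays below both nondiabetic ones. How many of all genes had such an order of the arrays, here and below, was not counted. The other expressed probe sets of Hspa5 gave -0.37 and 0.05, and 0.02 and -0.25. Canx (calnexin) had 14327, 14749.8, 13381 and 13462, and Calr (calreticulin) 14378, 16132, 14944 and 14925. Their diabetes differences lay between -0.13 and 0.06, though a dimmer probe set of Canx gave -0.56 in sham kidneys. Hsp90b1, the ER member of the Hsp90 family, had 10939.7, 13101, 9619 and 12719, lower on both sham arrays than on both uninephrectomy arrays. The uninephrectomy differences were 0.26 and 0.40, with a limma mean of 0.33 ± 0.17 (SE, adjusted p = 0.94). Its other probe set gave -0.29 and 0.18, and both were lower with diabetes in both comparisons.

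Dnajc3 and Pdia6, which carry an ERSE as well, were lower with diabetes. Dnajc3 encodes p58IPK, an ER co-chaperone that also restrains the kinase PERK, and its loss causes diabetes in mice and people. Its signals were 6379, 6931, 4525 and 5326, so both diabetic arrays lay below both nondiabetic arrays. The differences were -0.49 in sham and -0.38 in uninephrectomised kidneys, and the limma mean of -0.44 ± 0.16 did not pass (adjusted p = 0.18). All 5 of its expressed probe sets were lower in both comparisons, from -0.67 to -0.32 and from -0.51 to -0.05. Pdia6, a disulfide isomerase, had 2753, 2485, 2081 and 2224, with differences of -0.40 and -0.16, and both of its probe sets were lower in both comparisons.

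Sdf2l1, a small ER protein that keeps substrates of BiP soluble, showed the largest ER difference. Its only probe set read 1115, 848.8, 543.7 and 872.9, lowest on the diabetic sham array and highest on nondiabetic sham, with both uninephrectomy arrays between. The log2 difference with diabetes was -1.001 in sham and 0.04 in uninephrectomised kidneys, and that with uninephrectomy was -0.38 in nondiabetic and 0.66 in diabetic mice. Its mean diabetes effect of -0.48 ± 0.20 did not pass limma (adjusted p = 0.29).

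The disulfide isomerases followed a like order in sham kidneys. Pdia4 had 1573, 1526, 1081 and 1264 (differences with diabetes of -0.53 and -0.27, limma mean -0.40 ± 0.16, adjusted p = 0.30), and both diabetic arrays lay below both nondiabetic arrays. Its second probe set, below the expression level, gave -1.19 and -0.75. Pdia5 had 901.8, 819.1, 631.3 and 700.2, again with both diabetic arrays lowest. Pdia3, the isomerase that works with calnexin and calreticulin, had 5329, 3685, 3627 and 4626. Its differences were -0.55 in sham and 0.33 in uninephrectomised kidneys, so its direction turned with surgery. Its second expressed probe set gave -0.33 and -0.97, so the direction in uninephrectomised kidneys also depended on the probe set. Hyou1, the ER nucleotide exchange factor Grp170, had 1409, 1636, 1266 and 1592, higher after uninephrectomy by 0.21 and 0.32, and its other expressed probe set was higher by 0.15 and 0.20.

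**Figure D3:**
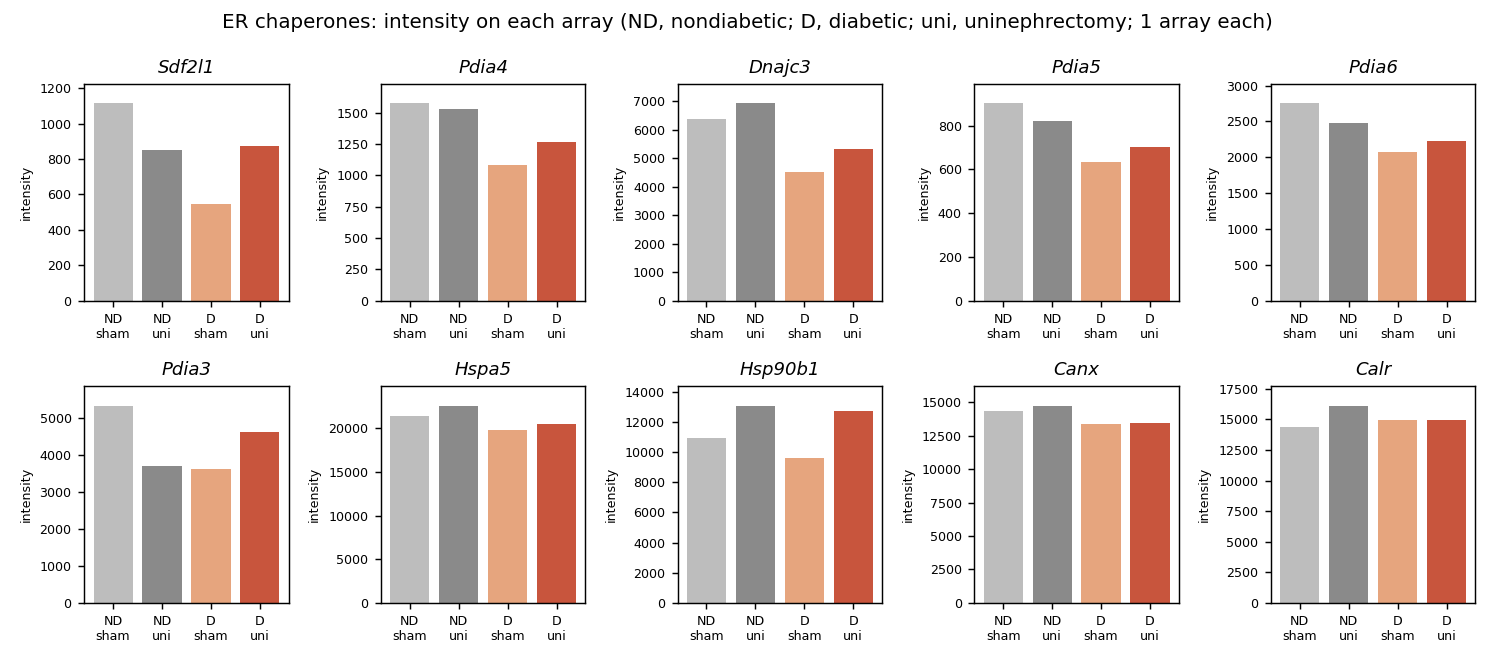
Linear intensity of 10 ER chaperone genes on each of the 4 arrays (1 bar per array, axes from 0, no error bars as there is 1 array per group). Dnajc3, Pdia4, Pdia5 and Pdia6 are lower on both diabetic arrays, Sdf2l1 is lowest on the diabetic sham array at 543.7, and Canx and Calr are nearly level.

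The remaining ER genes are DnaJ proteins and Hspa13. Dnajb12, an ER membrane protein that recruits cytosolic Hsc70, was the ER gene farthest above 0 with diabetes. Its signals were 298.9, 316.4, 455.9 and 544.5, with differences of 0.57 and 0.74 and a limma mean of 0.65 ± 0.23 (adjusted p = 0.18), but its second expressed probe set gave -0.50 and 0.03. Dnajc16 had 260.0, 418.3, 311.7 and 385.1, higher after uninephrectomy by 0.63 and 0.28, where its second probe set gave -0.17 and -0.25. Dnajb9, Dnajb11, Dnajb14, Dnajc1, Dnajc10, Dnajc14, Dnajc18 and Hspa13 had diabetes differences between -0.28 and 0.18 and uninephrectomy differences between -0.33 and 0.40. All 5 expressed probe sets of Dnajc1 were lower in diabetic than in nondiabetic sham kidneys. Counted singly, 44 of 50 expressed ER probe sets were lower there, against 50.8% of all expressed probe sets, and of 70 cytosolic probe sets 38 were lower.

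Plasma cells secrete large amounts of protein and are rich in ER chaperones. Of 5 plasma cell markers with a named probe set 3 were expressed and Tnfrsf17 and Prdm1 were not, with none at 0. The 3 expressed markers summed to 1333, 2056, 912.4 and 3420.0, lowest on the diabetic sham array, and most of the sum was Jchain. Jchain, the joining chain of secreted antibodies, had 873.8, 1591, 486.0 and 2699.9. Sdc1, a surface proteoglycan also made by epithelium, had 327.6, 294.9, 267.6 and 538.0, lowest on the same array. Mzb1, an ER protein of B and plasma cells, had 131.7, 170.1, 158.8 and 182.1, lowest on nondiabetic sham and 0.23 higher in diabetic than in nondiabetic sham kidneys. The part of these cells, of the spike-in difference and of the actin ratio in the ER result was not tested.

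Of the 6 expressed UPR regulators 0 passed for either factor. Ern1, the kinase and nuclease that splices Xbp1 mRNA, had 672.0, 744.1, 938.1 and 685.8, highest on the diabetic sham array. The differences with diabetes were 0.47 in sham and -0.11 in uninephrectomised kidneys, and its second expressed probe set gave 0.31 and 0.06. Ddit3, the pro-apoptotic factor CHOP, had 753.1, 716.8, 964.6 and 723.9, also highest on diabetic sham (0.35 and 0.01, with 0.14 and -0.07 in its other probe set). Xbp1, the factor that drives ER chaperone and degradation genes, had 12513, 12308, 11086 and 11698. It was lower with diabetes by a little, at -0.17 and -0.07, and 4 of 4 probe sets were lower in sham kidneys. Spliced and unspliced Xbp1 were not separated here.

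Atf4, the factor translated when PERK is active, was nearly level at 2500.4, 2119.7, 2190.1 and 2209, with differences with diabetes of -0.19 and 0.06. Atf6 had 723.8, 678.7, 762.0 and 615.0, with uninephrectomy differences of -0.09 and -0.30, while a dim probe set gave -0.53 and 0.75. Herpud1 had 7488, 7619, 7913 and 5432, lowest on the diabetic uninephrectomy array. Its differences after uninephrectomy were 0.02 in nondiabetic and -0.54 in diabetic mice, where its second probe set gave -0.03. Trib3, a pseudokinase induced by Atf4 and Ddit3, was not expressed by the rule, with signals of 115.6, 47.4, 75.7 and 116.3. After uninephrectomy in diabetic mice 4 of 6 UPR regulators were lower (52.4% of all genes), with a median of -0.35. Of the ER chaperones 18 of 21 were higher (47.6% of all genes). A count of 4 of 6 says little beside that share. The UPR direction depended on the probe sets used, as the median became 0.05 when the probe sets of a gene were averaged (5 genes) and 0.01 with 15 probe sets taken singly.

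Of the cytosolic chaperones, the inducible Hsp70 genes were lowest on the nondiabetic uninephrectomy array. Hspa1a and Hspa1b are near-identical copies, so their probe sets may read both transcripts. Hspa1a had 1414, 731.4, 1121 and 906.7, lower after uninephrectomy by 0.93 in nondiabetic and 0.30 in diabetic mice. The limma mean was -0.61 ± 0.18 (adjusted p = 0.12). Hspa1b had 7969, 5680.2, 8508 and 7728, with uninephrectomy differences of -0.49 and -0.14, and its 3 probe sets were lower in both comparisons (from -0.73 to -0.49 and from -0.25 to -0.14). All 3 were also higher with diabetes, by 0.04 to 0.09 in sham and 0.44 to 0.56 in uninephrectomised kidneys. Dnajb1, the Hsp40 partner induced together with them, had 2008, 1698, 2172 and 1998, again lowest after nondiabetic uninephrectomy. Its second expressed probe set had 741.8, 597.8, 566.5 and 680.6, lowest on diabetic sham, so the lowest array depended on the probe set. Cryab, a small heat shock protein gene outside the naming rule, had 6727, 4202, 7168 and 6971 and passed limma for neither factor. It is 1 of 27 other heat shock response and cytosolic folding genes, whose median with uninephrectomy in nondiabetic mice was -0.03. St13 and Ahsa2 of that list were highest on the nondiabetic uninephrectomy array. The 4 expressed adipocyte markers, of 4 with a named probe set and none at 0, summed to 33772, 19299, 39665 and 23064. Their sum was likewise lowest on the nondiabetic uninephrectomy array, and so were Adipoq, Car3 and Fabp4. Lpl, the brightest of the markers on that array, had 19634, 14095, 13708 and 9997, lowest on diabetic uninephrectomy instead. Aqp2 was also lowest on nondiabetic uninephrectomy. Aqp2, the water channel of the collecting duct, had 2531, 1446, 3129 and 3583, a difference of -0.80 with uninephrectomy in nondiabetic mice, though the 8 nephron markers in sum were not low there. The part of fat or collecting duct cells in these values was not tested.

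The small heat shock proteins hold denatured proteins until other chaperones refold them. Hspb1 (Hsp25) had 1372, 1769, 1534 and 2745, lowest on nondiabetic sham and highest on diabetic uninephrectomy. It was higher after uninephrectomy by 0.36 in nondiabetic and 0.83 in diabetic mice, with a limma mean of 0.59 ± 0.16 (adjusted p = 0.064). This was the member nearest to the threshold, and over 9 alternatives its adjusted p lay between 0.021 and 1. It was higher with diabetes too, by 0.16 and 0.63 (limma mean 0.39 ± 0.16, adjusted p = 0.29). Its second probe set gave -0.07 and 0.31 with uninephrectomy and 0.47 and 0.85 with diabetes, so the nondiabetic uninephrectomy difference was not shared by both.

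Hspb8, a partner of the co-chaperone Bag3 in selective autophagy, had 140.5, 252.4, 218.8 and 318.4, lowest on nondiabetic sham. Its differences were 0.74 and 0.49 with uninephrectomy, and its second probe set gave 0.49 and -0.48. The dim genes Hspb2 and Hspb6, both of muscle, had signals of 143.6, 191.2, 223.0 and 237.2 and of 140.8, 108.3, 171.6 and 138.0. Of 7 tubular injury markers with a named probe set, all expressed, 6 rose with diabetes and 2 with uninephrectomy in limma (1.47% and 0.33% of all genes). Their summed signal was 12253, 16042, 16969.7 and 37482, highest on the array where Hspb1 was highest. Most of the sum was Clu (7857, 11462, 11244 and 21781). With uninephrectomy in nondiabetic mice Lcn2 (-1.09, a dim gene there), Havcr1 (-0.98) and Vcam1 (-0.20) were lower, while Clu, Krt18, Krt8 and Cd44 were higher. Vcam1, called for uninephrectomy, was higher only in diabetic mice (2.36). Of 9 macrophage markers 7 were expressed, without Cd68 and Itgam, and the 7 summed to 9216, 7864, 8724 and 14583. Csf1r, the brightest of them, had 6558, 5093, 5929 and 5182 and was not highest on diabetic uninephrectomy. The others were highest there, with Lyz2 at 726.8, 634.8, 1011 and 5043. Of 5 smooth muscle markers 4 were expressed, without Cnn1, and the 4 summed to 5125, 5229, 7197 and 11299.7. With diabetes 3 of them rose (1.47% of all genes). Without the variance trend, limma called 0 of the tubular injury and smooth muscle markers for either factor. Of 6 skeletal muscle markers 5 were not expressed. No marker of these lists was at 0. The part of injured tubule, macrophage or smooth muscle cells in the values of the small heat shock proteins was not tested.

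Of the constitutive folding machinery, Hspa8 (Hsc70), the housekeeping Hsp70, had 38015, 39495, 38130 and 32588, with the diabetic uninephrectomy array lowest. With uninephrectomy in diabetic mice its 4 expressed probe sets gave values from -0.23 to 0.57. Hsp90aa1 had 12622, 14301, 11952 and 14799, higher on both uninephrectomy arrays, by 0.18 and 0.31, where its other expressed probe sets gave values from -0.39 to 0.20. Hsph1, the Hsp110 exchange factor, had 4224, 4069, 4269 and 3236. In the mitochondria Hspd1 had 12314, 13064, 13278 and 11635 and Hspe1 10538, 10760.2, 10519 and 10413, and diabetes differences of both lay between -0.17 and 0.11. None of the 8 mitochondrial genes reached 1.5-fold in any comparison, and their class medians lay between -0.12 and 0.04.

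**Figure D4:**
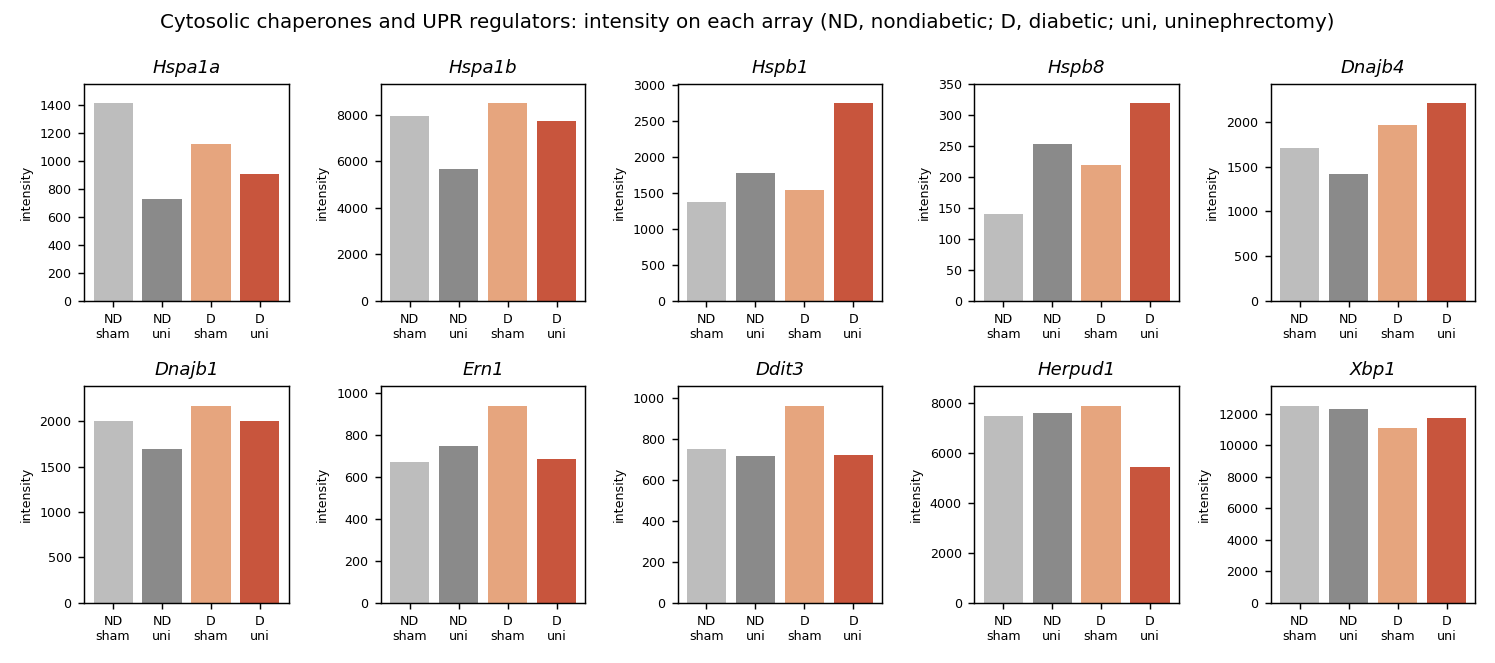
Linear intensity of 6 cytosolic chaperone genes and 4 UPR regulators on each array (1 bar per array, axes from 0, no error bars as there is 1 array per group). Hspa1a and Hspa1b are lowest after nondiabetic uninephrectomy, Hspb1 is highest after diabetic uninephrectomy at 2745, and Ern1 and Ddit3 are highest on the diabetic sham array.

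Other DnaJ co-chaperones with large differences between single arrays did not pass. Dnajb4, which supports Hsp70 in muscle and other tissues, had 1709, 1413, 1969 and 2208, higher with diabetes by 0.20 and 0.63 (limma mean 0.42 ± 0.16, adjusted p = 0.22). Its further probe sets gave -0.27 and 0.70, and -0.56 and -0.14. Dnajb5 had 264.9, 257.6, 146.3 and 230.5, lowest on diabetic sham at a difference of -0.75. Dnajc17, a nuclear protein, had 938.7, 1655, 1277 and 1499.5, lowest on nondiabetic sham, and was higher after uninephrectomy by 0.80 and 0.23 (limma mean 0.51 ± 0.17, adjusted p = 0.22). These values rest on 1 probe set. The others of this gene were far below the expression level, with 7.3, 20.1, 6.9 and 22.0, and 11.3, 7.9, 2.0 and 15.3. Dnajc24, needed for diphthamide synthesis, had 350.5, 202.9, 242.2 and 322.0, low on the 2 arrays on which the spike-in signals were highest, whose part was not tested. Its second probe set, below the expression level, had 96.0, 103.8, 58.4 and 91.1. Dnajc2, a ribosome-associated co-chaperone, had 1066, 1008, 1185 and 1528, with 2 of 2 probe sets higher with diabetes in both comparisons.

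**Figure D5:**
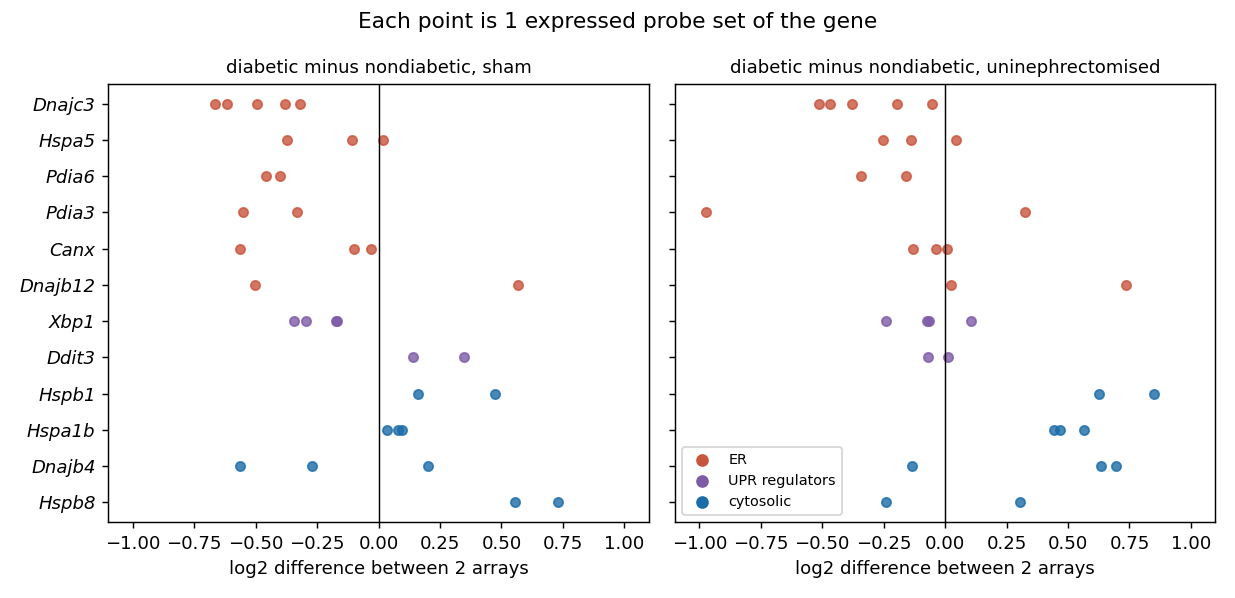
Log2 differences with diabetes in sham (left) and uninephrectomised (right) kidneys for every expressed probe set of 12 member genes, 1 point per probe set. The 5 probe sets of Dnajc3 lie below 0 on both sides and those of Hspb1 and Hspa1b above 0, while the 2 of Dnajb12 lie on opposite sides of 0 in sham kidneys (-0.50 and 0.57).

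Repeated probe sets read the same RNA and are no replicates. Of 49 member genes with at least 2 expressed probe sets, all probe sets had 1 sign in 31 genes with diabetes in sham kidneys (63.3%, against 48.3% of 4924 such genes in all) and in 26 in uninephrectomised kidneys (53.1% against 52.8%). With uninephrectomy this held for 23 in nondiabetic (46.9% against 44.4%) and 28 in diabetic mice (57.1% against 50.6%). In 13 of the 49 genes every probe set had the same sign in both diabetes comparisons (26.5%, against 16.7% of such genes in all).

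The 14 members below the expression level were Trib3, Pdia2, Hspa12b, Hspa1l, Hspb3, Hspb7, Hspb9, Dnajb3, Dnajb7, Dnajb8, Dnajb13, Dnajc5b, Dnajc5g and Dnajc27. In their brightest probe sets, only Dnajb8 (124.2, 175.0, 62.0 and 76.9) and Trib3 had an array above it.

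Genes of the same pathways outside the naming rule were taken from 3 lists. Of 36 other genes of ER stress and ER-associated degradation 1 rose and 0 fell with diabetes (1.47% and 0.732% of all expressed genes). With uninephrectomy 0 rose and 0 fell (0.33% and 0.178%). A count of 1 gene says little about a list of this size. The gene that rose was Cebpb, which pairs with Ddit3 and also serves the acute phase, with 832.6, 849.1, 1464 and 1545 (0.82 ± 0.17, limma adjusted p = 0.0013). Its call held in 4 of 9 alternatives and was lost in the others, with an adjusted p of up to 0.24 (without the variance trend). The list medians were -0.08 and 0.08 with diabetes in sham and uninephrectomised kidneys. Atf3, a stress factor downstream of Atf4, had 131.6, 115.6, 151.4 and 459.5, and its diabetes mean of 0.97 ± 0.33 did not pass (limma adjusted p = 0.13). Creld2 and Manf, secreted ER stress proteins, had 1678, 1841, 1329 and 1498, and 5643, 5026, 4249 and 5277, both lowest on diabetic sham. They were picked after their values were seen, and how many of the 36 were lowest there was not counted. Derl1, Sel1l, Sil1 and Creb3l2 of the same list were highest on that array.

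Of 27 other genes of the heat shock response and cytosolic folding 1 rose and 1 fell with diabetes (1.47% and 0.732% of all expressed genes). With uninephrectomy 0 rose and 0 fell (0.33% and 0.178%). Counts of 1 gene say little about the list. Both genes called with diabetes are Hsp90 co-chaperones of steroid receptors. Fkbp5, which lowers the affinity of the glucocorticoid receptor and is induced by it, rose by 0.82 ± 0.17 (limma adjusted p = 0.0011), with 850.9, 1151, 1778 and 1746. Fkbp4, which has the opposite effect on the receptor, had a limma mean of -0.67 ± 0.18 (adjusted p = 0.021) and so fell with diabetes, with 1198, 1209, 763.8 and 725.3. In both genes the diabetic arrays did not overlap with the nondiabetic arrays. As the genes were named because limma called them, this adds no support. Each call held in 4 of 9 alternatives, and was lost with median centring, without the filter, with averaged probe sets, with probe sets singly and without the variance trend. Over the alternatives the limma adjusted p lay between 0.00014 and 0.72 for Fkbp5 and between 0.011 and 0.63 for Fkbp4. The list medians were -0.04 and 0.04 with diabetes. Of 10 other mitochondrial protein quality genes 0 rose and 0 fell with either factor, against the same shares of all genes.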

How the data were processed

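Per the labels' protocols, RNA was extracted with TriZol from frozen kidney, pooled, and 100 ng labelled with the 3′ IVT Express kit. The deposited values are linear intensities for 45101 probe sets, and the authors' summarisation software is not given in the sources used here. A mean trimmed of 2% at each end came to 500.003 on all 4 arrays, so the deposited intensities were already scaled alike. They were put on the log2(intensity + 26.4) scale, 26.4 being the 20th percentile of the deposited intensities, with no further normalisation. Genes were named from the platform annotation where a probe set had 1 symbol (34945 probe sets), and 64 controls were left out. Expressed genes reached the median over all probe sets. An eBayes trend fit in limma 3.58.1 (R 4.3.3; Benjamini-Hochberg over 11206 genes) was made with diabetes and surgery as additive factors, which leaves 1 residual degree of freedom against 57.9 from other genes. Pooling the mice hides the spread between animals. The fit was first tested on simulated data. Signals on every array are given for 24 fixed members where measured, for any member passing limma, and for the 6 others with the largest difference between 2 arrays. Further members were named after their values were seen. The members and lists were chosen with earlier results of these data known. Alternatives covered normalisation, filter, offset, probe sets per gene, variance prior, thresholds and class definition.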

Additional observations from a re-analysis of the deposited data

Results flagged for a closer look

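In 2 expressed members the diabetes difference had opposite signs in sham and uninephrectomised kidneys and the effects differed by over 1 log2 unit. Sdf2l1, a cofactor of BiP in the ER, differed by -1.001 in sham and 0.04 in uninephrectomised kidneys, an effect 1.04 higher after uninephrectomy. Dnajc24, a cytosolic co-chaperone of diphthamide synthesis, differed by -0.49 and 0.60, an effect 1.09 higher after uninephrectomy. The second probe set of Dnajc24, below the expression level, gave -0.53 and -0.15, so the opposite signs were not shared by both. With 1 array per group these differences were not tested.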

How the results depend on the processing

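No paired analysis was possible because each group is 1 array. No member passed for diabetes in limma under any alternative run. For uninephrectomy 1 member, Hspb1, passed with quantile normalisation (adjusted p = 0.035), with the 75th percentile filter (0.021), with the 40th percentile offset (0.045) and at an adjusted p below 0.1 (0.064), and none did under the others run. All other settings of single genes kept their side of the threshold, and in 14 of 604 the sign of an uncalled value differed. Over all genes, diabetes calls were 247, and ranged from 0 without a trend through 3 with the mean of probe sets, 13 without a filter, 62 with probe sets singly and 88 with median centring to 311 with quantile normalisation. Uninephrectomy calls were 57, and were 115 with quantile normalisation, 10 with median centring, 2 without a filter, 1 with the mean of probe sets, 16 with probe sets singly, 4 without a trend and 90 at an adjusted p below 0.1.

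Counts of members at least 1.5-fold different moved as follows, with the share of all genes of that setting in parentheses. Median centring, which shifts all genes, gave 5 lower with diabetes in sham (4.85%) and 4 lower after uninephrectomy in nondiabetic mice (5.35%). Without a filter, among 88 genes, 5 were lower with diabetes in sham (7.13%), 11 higher (9.21%) and 1 lower (13.5%) in uninephrectomised kidneys, 7 lower after uninephrectomy in nondiabetic (6.66%) and 4 higher in diabetic mice (8.61%). The 75th percentile filter, with 61 genes, gave 1 lower with diabetes in sham (1.55%), 3 higher in uninephrectomised kidneys (4.25%), and 1 higher (1.01%) and 1 lower (1.21%) after uninephrectomy in nondiabetic mice. The mean of probe sets gave 1 higher with diabetes in uninephrectomised kidneys (5.17%) and 0 higher after uninephrectomy in nondiabetic mice (3.41%). The 156 probe sets taken singly gave 2 higher (4.32%) and 10 lower (4.26%) with diabetes in sham, 10 higher (6.12%) and 1 lower (6.38%) in uninephrectomised kidneys, 8 lower after uninephrectomy in nondiabetic (3.8%) and 6 higher in diabetic mice (5%). An offset of 1 gave 3 higher with diabetes in sham (5.42%), and the 40th percentile offset 3 higher in uninephrectomised kidneys (5.22%). At 2-fold 1 was lower with diabetes in sham (0.446%), and 0 were higher with diabetes in uninephrectomised kidneys (2.14%), 0 higher (0.678%) and 0 lower (0.518%) after uninephrectomy in nondiabetic and 0 higher in diabetic mice (1.48%).

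The cytosolic median minus the ER median after uninephrectomy in nondiabetic mice, -0.1065, reversed to 0.0222 with the mean of probe sets, and was -0.0182 with heat shock proteins against luminal ER chaperones, -0.0488 with probe sets singly and -0.0607 with quantile normalisation. In diabetic mice it moved from -0.2097 to -0.0758 with the mean of probe sets, to -0.0723 with heat shock proteins against luminal ER chaperones, to -0.0841 with UPR regulators in the ER class, to -0.1126 without a filter and to -0.1203 with probe sets singly. The cause was not tested. With diabetes it kept its sign under every alternative run, between 0.1603 and 0.2436 in sham and between 0.1118 (75th percentile filter) and 0.2627 (luminal class definition) in uninephrectomised kidneys. Dim genes lie near the offset, so signal over background limits them.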
